A study of Mus musculus with 31 samples.

Results

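The liver of untreated SM/J mice was compared with that of 3 other inbred strains. The 4 arrays of vehicle-treated SM/J animals, of 31 arrays in all, were set against 4 vehicle arrays each of MA/MyJ, NZW/LacJ and WSB/EiJ, the 3 strains counting equally. All animals were females, 8 to 10 weeks old when dosing began. Vehicle animals received sterile water by gavage once a day for 7 days, and the left lobe was frozen 24 hours after the last dose. In the rest of the series the same 4 strains received PF-04287881, a candidate antibiotic, at 600 mg/kg, with 4 animals a strain except 3 in WSB/EiJ. The labels code Kupffer cell vacuolation for MA/MyJ and NZW/LacJ and single cell necrosis for NZW/LacJ, and neither for SM/J or WSB/EiJ, in vehicle and treated animals alike, so that the codes go with the strain and not with the treatment of an animal. Each strain is inbred, so its 4 animals are near copies of 1 genome, and p-values reflect how far animals of 1 strain differ from each other, not how far strains do.

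SM/J is an inbred line that was started by selection for small body size and is known for a low activity of the lysosomal sialidase Neu1 in its liver. Inbred strains carry different alleles at many genes, so the steady-state messenger RNA of a gene can differ between them without any treatment. An array reads each transcript through short probes designed on a reference sequence. A strain whose sequence differs under a probe can therefore give a low signal for a transcript it makes, which is why values of further probe sets are given for many of the named genes, above all where they end a call or turn its direction.

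Array labels were checked first. On probe sets private to one strain, chosen on the treated arrays, the 4 SM/J vehicle arrays took positions of 0.913 to 0.939 on the SM/J scale, where 0 is the mean of the other strains and 1 the mean of treated SM/J. The 12 other vehicle arrays lay between -0.002 and 0.201 on it. Of the 16 vehicle arrays, that of WSB/EiJ animal 4 stood apart from its group, with 0.294 on the WSB/EiJ scale against 0.470 to 0.724 for the other 3, so list counts are given with and without it, and where only 1 pair of counts stands, leaving it out did not change that pair. The array labelled WSB/EiJ treated animal 3 went against its label, with 0.0055 on the WSB/EiJ scale and 0.768 on the NZW/LacJ scale, and was left out of the treated comparison. All 13 measured hepatocyte markers were bright in SM/J, with means of 13.10 to 14.77 log2 units. Albumin (Alb) differed from the mean of the other strains by -0.01 and Apoa1, the main protein of high-density lipoprotein, by 0.04. Among those 13 markers 1, Pck1, was called higher and 1, Hnf4a, lower, and 1 and 2 without WSB/EiJ animal 4. The Hnf4a call ended without SM/J animal 2, 3 or 4 (-0.24 to -0.21).

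Of 12462 genes tested, 1248 (10%) were higher and 1326 (10.6%) lower in SM/J, together 20.7%. Such a call required a Benjamini-Hochberg adjusted p under 0.05 in limma for SM/J minus the mean of the other 3 strains and a SM/J mean beyond all 3 strain means. A further 588 genes passed the contrast with SM/J between the other strains and were not called. Counts called in each gene list below are to be read against the 10% and 10.6% of all genes. Without WSB/EiJ vehicle animal 4 the calls numbered 1520 (12.2%) and 1642 (13.2%), and list counts without that animal are to be read against these shares. In 309 of the 1248 higher genes and 368 of the 1326 lower genes the 4 SM/J animals also lay wholly outside the range of the 12 others. These are 2.48% and 2.95% of all 12462 genes. Whether called or not, 312 genes (2.5%) and 372 genes (2.99%) lay so, which are nearly the same genes. Most differences were small, since 83 of the higher genes exceeded 1 log2 unit, which is a 2-fold ratio, and 105 of the lower genes fell below -1. Differences beyond 2 log2 units were found in 13 higher and 23 lower genes. Values are log2 units of probe-set intensity, differences are given ± the standard error of the model, and a gene's value is that of its brightest probe set.

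Among the 15 largest differences upward without overlap, Rassf4, a member of the Ras association domain family, came first. Its 4 SM/J animals read 8.93, 10.22, 9.46 and 8.73 and the 12 others 5.47 to 6.57, a gap of more than 2 log2 units between the groups. The difference was 3.35 ± 0.21, a 10.2-fold ratio (adjusted p = 2.38e-08), and a second probe set gave 1.64. Arhgef10 read 9.04, 8.0, 8.10 and 8.37 in SM/J and 5.05 to 5.73 elsewhere, a difference of 3.05 ± 0.15. No array of another strain exceeded 6.49, the median of all values, for Arhgef10 or for Camk2b, a subunit of calmodulin-dependent kinase II at 1.83 ± 0.08. Those 2 genes passed the filter through SM/J alone. Rassf4, Vldlr, Dram1 and Ifi202b had 2, 3, 1 and 1 arrays of other strains above 6.49. That is fewer than the 4 the filter needs, so they too passed only with SM/J. For all these genes the difference is a description, and ratios against such dim signals are imprecise.

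Vldlr, the very low density lipoprotein receptor, which takes up triglyceride-rich particles, read 8.05, 9.18, 9.06 and 9.11 in SM/J against 5.52 to 7.35. SM/J animal 1 was the lowest of its group yet lay above all 12 others, and 3 further probe sets gave 1.01 to 3.03. G0s2, an inhibitor of adipose triglyceride lipase, read 13.04, 12.75, 12.90 and 12.87 against 6.92 to 12.63. Its difference of 1.93 ± 0.52 (adjusted p = 0.0128) came largely from WSB/EiJ, with strain means of 9.29 in WSB/EiJ, 11.86 in MA/MyJ and 11.72 in NZW/LacJ. Dram1, a lysosomal membrane protein of the autophagy pathway, was 2.80 ± 0.21 higher and Slc41a2, a magnesium transporter, 1.85 ± 0.25. The 4 SM/J animals read 9.15, 8.41, 8.50 and 8.20 for Dram1 and the others 5.09 to 6.87, so no animal overlapped.

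Atp11a, a phospholipid flippase, and its chromosomal neighbour Mcf2l were 2.09 ± 0.14 and 2.03 ± 0.10 higher. The SM/J animals read 8.72, 9.10, 8.97 and 8.64 for Atp11a and 8.21, 8.55, 8.49 and 8.22 for Mcf2l, above the ranges of 5.96 to 7.95 and 5.53 to 7.73 in the other strains. A second Atp11a probe set gave 0.37, with an SM/J mean of 7.55 below the 7.68 of NZW/LacJ, so that the Atp11a call ended with it. Stk25, a serine/threonine kinase, read 10.54, 10.41, 10.75 and 10.48 in SM/J and 7.03 to 9.18 elsewhere, a difference of 2.30 ± 0.08. The rest of the 15 were Gstm2, Tfrc and Cyp2d9, described below, Them7 at 2.29 ± 0.24 and Ifi202b, a DNA-binding protein induced by interferon, at 2.02 ± 0.14. G0s2 and Cyp2d9 did not pass against each of the 3 strains separately.

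**Figure D1:**
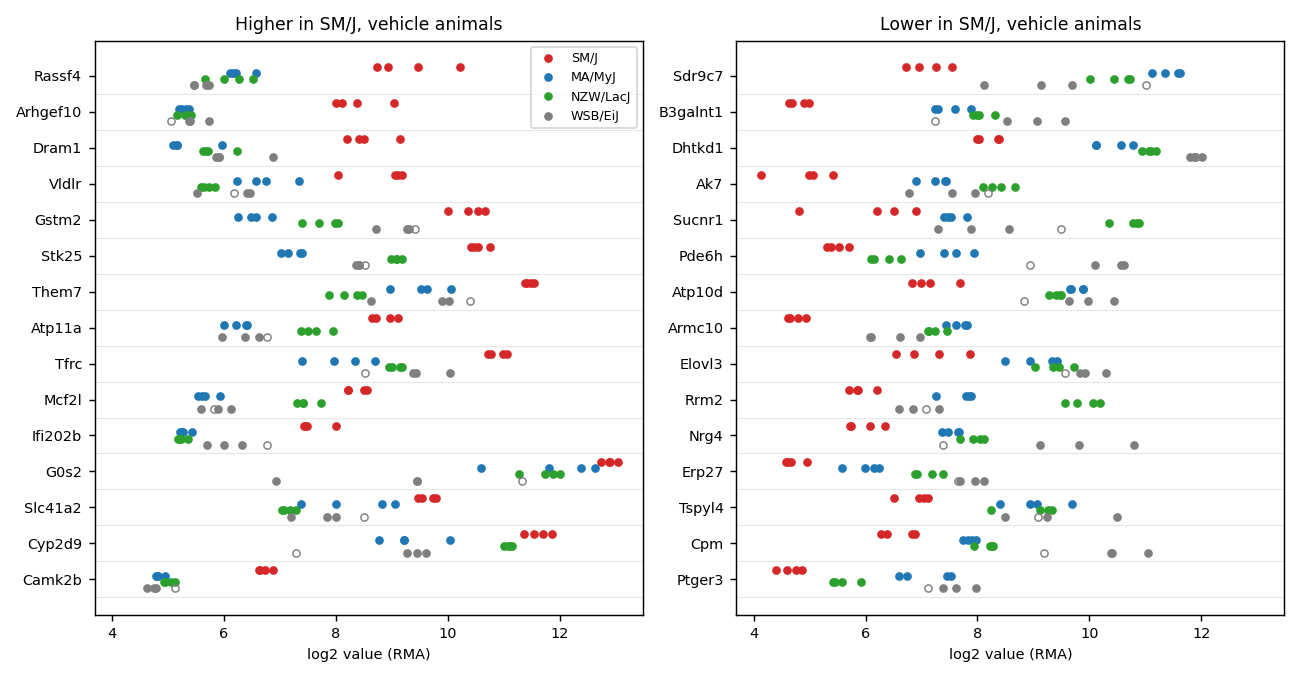
Vehicle animals of the 4 strains for the 15 genes with the largest difference upward and the 15 with the largest difference downward in SM/J, in log2 units of probe-set intensity on the horizontal axis, 1 point per animal, the open symbol marking WSB/EiJ animal 4. The 4 SM/J points lie outside the 12 others in every gene, as the choice of these genes required; Rassf4 reads 8.73 to 10.22 in SM/J against 5.47 to 6.57.

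Downward, the largest difference without overlap was that of Sdr9c7, a dehydrogenase/reductase that acts on retinoids. SM/J animals read 7.55, 7.26, 6.72 and 6.95 and the others 8.12 to 11.62, a difference of -3.34 ± 0.34 or 10.1-fold (adjusted p = 4.42e-06), with -2.12 in a second probe set. Dhtkd1, a component of the 2-oxoadipate dehydrogenase complex of lysine breakdown, read 8.02, 8.37, 8.38 and 7.99 in SM/J and 10.12 to 12.01 in the others, a difference of -2.93 ± 0.11. SM/J stood below all 3 strains in turn for Dhtkd1, whose means were 11.90 in WSB/EiJ, 10.39 in MA/MyJ and 11.08 in NZW/LacJ. B3galnt1, an N-acetylgalactosaminyltransferase of globoside synthesis, read 4.89, 4.64, 4.99 and 4.69 against 7.23 to 9.56. Its difference of -3.26 ± 0.27 was against a SM/J signal under the filter level.

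Such dim SM/J signals were common among the lower genes, since 8 of the 15 had no SM/J array above 6.49. They were B3galnt1, Ak7, Pde6h, Armc10, Rrm2, Nrg4, Erp27 and Ptger3, and their ratios are against a signal near background. Rrm2, a subunit of ribonucleotide reductase, was at -2.29 ± 0.14, with means of 6.96 in WSB/EiJ, 7.70 in MA/MyJ and 9.90 in NZW/LacJ against 5.90 in SM/J. Nrg4, a ligand of the epidermal growth factor family, read 6.08, 5.73, 5.71 and 6.34 in SM/J and 7.37 to 10.80 in the others, and a second probe set gave -1.31. Ptger3, a receptor for prostaglandin E2, was at -2.08 ± 0.18, Ak7, an adenylate kinase of cilia, at -2.84 ± 0.23, and Erp27, of the protein disulfide isomerase family, at -2.28 ± 0.13. Pde6h, an inhibitory subunit of a cone phosphodiesterase, and Armc10 were at -2.47 ± 0.24 and -2.37 ± 0.14.

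Of the lower genes with at least 1 SM/J array above that level, Sucnr1, the succinate receptor, read 4.81, 6.51, 6.90 and 6.21 in SM/J and 7.29 to 10.89 in the others. Sucnr1 lay under 6.49 in SM/J animals 1 and 4, so the size of its difference is partly against a signal near background. Its 4 SM/J values spread over more than 2 log2 units, with animal 1 the lowest, and the difference was -2.75 ± 0.34. Elovl3, an elongase of very long chain fatty acids, read 7.31, 6.55, 6.86 and 7.86 against 8.48 to 10.29, a difference of -2.30 ± 0.21. Atp10d, a phospholipid flippase, was at -2.47 ± 0.20 and Cpm, carboxypeptidase M, at -2.17 ± 0.22, with -1.73 in a second Cpm probe set. Tspyl4 was at -2.21 ± 0.30.

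The largest difference of all was found in Nlrp12, a cytoplasmic receptor of the NOD-like family, at -3.99 ± 0.39 (15.9-fold, adjusted p = 2.8e-06). SM/J animals read 7.51, 5.73, 5.42 and 5.67 and the others 7.07 to 11.51, so SM/J animal 1 fell within the range of the other strains and kept the gene from the groups above. The other 3 SM/J animals read under 6.49, so the size of this difference is against a signal near background. Of the 20 tested nucleic acid and inflammasome sensors, 4 were lower (20% against 10.6% of all genes) and 2 higher (10%, as over all genes). Their median difference was 0.00336 against 0.0124 over all genes. Tlr12, an endosomal Toll-like receptor, was at -1.42 ± 0.12, but its WSB/EiJ mean of 5.83 was as dim as that of SM/J, 5.77, and a second probe set gave -0.29 with SM/J no longer below WSB/EiJ. Higher beside Ifi202b was Tlr5, the flagellin receptor, at 0.37 ± 0.11. The Tlr5 call ended without MA/MyJ animal 3 or SM/J animal 3 or 4, where the difference was 0.31 to 0.35 (adjusted p up to 0.0849).

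Neu1, the sialidase for which SM/J is known, was lower in SM/J at the level of its transcript. The 4 SM/J animals read 8.78, 8.83, 9.05 and 8.71, below the 9.30 to 9.85 of the 12 others. The difference of -0.72 ± 0.08 is a 1.64-fold ratio (adjusted p = 1.25e-05), with -0.35 in a dimmer second probe set and -0.94 among the treated animals. Sialidase activity was not measured here. Of the 24 tested lysosomal glycosidases and partners of the sialidase complex, 4 were higher and 3 lower, with and without WSB/EiJ animal 4, and the median difference was -0.0185.

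Around Neu1 the lysosomal genes differed in both directions. Ctsa, the protective protein that binds Neu1, was 0.27 ± 0.06 higher, with 11.80, 11.87, 11.97 and 11.80 in SM/J and 11.25 to 11.85 in the others. Hexa, the alpha subunit of beta-hexosaminidase, was 0.78 ± 0.07 higher, and its MA/MyJ mean of 9.03 was the farthest below the SM/J mean of 10.75. Hyal2, a hyaluronidase, was higher without overlap at 0.42 ± 0.06. Gusb, beta-glucuronidase, was lower at -0.53 ± 0.14, or -0.47 with an adjusted p of 0.05 without SM/J animal 2. Lamp2, a lysosomal membrane protein, was at -0.26 ± 0.06 in its brightest probe set, but 3 others gave -0.19 to 0.18, so the probe sets do not settle a direction. Among 18 cathepsins and lysosomal proteases 2 were higher and 3 lower, and 3 and 3 without WSB/EiJ animal 4, led by Ctse, an aspartic protease, at 1.41 ± 0.14, and Ctsc, dipeptidyl peptidase 1, at -0.54 ± 0.11. A second Ctse probe set gave 1.16, with an SM/J mean of 10.9 below the 12.08 of NZW/LacJ, so that the Ctse call ended with it.

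Sialic acid is added to glycoproteins in the Golgi and, once lost, exposes galactose that the hepatocyte's asialoglycoprotein receptor binds. Of 22 tested genes of sialic acid metabolism, 5 were higher (22.7%) and 2 lower (9.09%), and 6 and 3 without WSB/EiJ animal 4. The largest difference was that of Asgr2, a subunit of that receptor, with 11.30, 11.59, 11.63 and 11.48 in SM/J against 9.51 to 10.70, a difference of 1.39 ± 0.10 (adjusted p = 7.59e-08). No SM/J animal overlapped the others for Asgr2, whereas Asgr1, the other subunit, differed by -0.10 and was not called. Gne, the enzyme that starts sialic acid synthesis, was 0.47 ± 0.11 higher, and Cmas, which activates sialic acid, 0.33. St3gal1, a sialyltransferase, was at -0.48 ± 0.11, or -0.37 without SM/J animal 4 with an adjusted p of 0.041 and a mean no longer below all strains. Renbp was at -0.40 ± 0.09, a call that ended in a limma fit of 30 arrays with treated animals (adjusted p = 0.114). The cytosolic sialidase Neu2 was 0.49 ± 0.10 higher, a call that ended without MA/MyJ animal 3 or SM/J animal 2, 3 or 4 (0.45 to 0.48).

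The liver clock is a loop in which Arntl and Clock, or Npas2, activate genes through E-box sites. The Per and Cry proteins they induce repress them, while Nr1d1 and Nr1d2 repress Arntl through RORE sites and Ror proteins activate it there. Dbp and Tef are output factors that bind D-box sites. A single time point reads each gene at 1 phase of its day, and the time of day at which tissue was taken is not given in the sources used here. Because the clock genes are described for their promoters as well as their levels, 3 stretches of promoter follow, each with the searched motif in capitals. They come from RefSeq on GRCm38.p6 and are written 5′ to 3′ on the gene's strand.
Cry1 promoter, chr10:85185055-85185204, minus strand, E-box CACGTG: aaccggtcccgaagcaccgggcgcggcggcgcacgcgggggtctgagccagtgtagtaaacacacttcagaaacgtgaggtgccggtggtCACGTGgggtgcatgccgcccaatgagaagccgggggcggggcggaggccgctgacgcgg
Tef first promoter, chr15:81802523-81802672, plus strand, E-box CACGTG: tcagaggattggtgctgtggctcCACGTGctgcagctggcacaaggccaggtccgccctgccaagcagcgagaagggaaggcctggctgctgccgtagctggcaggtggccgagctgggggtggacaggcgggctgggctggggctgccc
Arntl second promoter, chr7:113207529-113207558, plus strand, RORE core TAGGTCA: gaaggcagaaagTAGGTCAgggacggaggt

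The promoter windows ran from 250 bases before to 50 bases after each start, and the search covered both strands, E-box CACGTG, RORE core TAGGTCA and D-box TTATGTAA. Of the 20 listed clock genes, 17 had a window, of which 5 held the E-box, 2 the RORE core and 1 the D-box. Over all 27025 genes with windows of the same length, 8.09% held the E-box in at least 1 window, 2.97% the RORE core and 1.11% the D-box. In the sequences shown, the Cry1 E-box starts at base -60 and that of Tef at -127, counted from the start, and the Arntl RORE core at base 31 after it. Among the 5 clock genes called higher, Tef held an E-box, and among the 4 called lower, Cry1 held an E-box and Arntl a RORE core. The letters alone do not tell whether a factor binds there.

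Of 18 tested clock genes, 5 were higher in SM/J and 4 lower, 9 of 18 together against 20.7% of all genes, and 6 and 4 without WSB/EiJ animal 4. The median difference was 0.343 against 0.0124 over all genes. All 3 called activators were lower. Arntl read 8.66, 7.85, 8.67 and 6.92 in SM/J, all below the 8.92 to 10.64 of the others, a difference of -1.73 ± 0.23 (adjusted p = 6.41e-05). A dimmer second Arntl probe set gave 0.08, so the direction of Arntl rests on the brighter one. Npas2 was at -0.96 ± 0.17 and Clock at -0.27 ± 0.07.

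Cry1, the repressor, was lower as well. Its SM/J animals read 5.92, 6.33, 6.05 and 6.26 and the others 7.36 to 8.88, with no overlap, a difference of -2.02 ± 0.22, or 4.06-fold (adjusted p = 8.05e-06). All 4 SM/J values lay under 6.49, so this ratio too is against a signal near background. The strain means of Cry1 were 8.14 in WSB/EiJ, 8.25 in MA/MyJ and 8.09 in NZW/LacJ, nearly level among the 3. Cry1 and Arntl were the clock genes that passed against each strain separately, and no further probe set of Cry1 passed the filter.

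The repressor Nr1d1 and the output genes were higher. Nr1d1 read 9.24, 9.46, 9.42 and 9.35 in SM/J, with strain means of 7.29 in WSB/EiJ, 7.08 in MA/MyJ and 9.20 in NZW/LacJ, a difference of 1.51 ± 0.20. Dbp read 8.98, 10.96, 10.86 and 11.40, with animal 1 below the others of its group, and was 2.30 ± 0.30 above the strain means of 6.79 in WSB/EiJ, 7.88 in MA/MyJ and 10.10 in NZW/LacJ. Tef was 0.84 ± 0.18 higher, Nr1d2 0.79 ± 0.21 and Usp2, a clock-controlled deubiquitinase, 0.71 ± 0.21. The Usp2 call ended without SM/J animal 3 or 4 (0.41 to 0.72, adjusted p up to 0.122). For Nr1d1, Dbp, Tef, Nr1d2 and Usp2 the NZW/LacJ mean lay 0.09 to 0.45 below that of SM/J, and none of the 5 passed against that strain alone, with adjusted p of 0.414 to 0.845. Per1 at 0.46, Per2 at 0.30 and Cry2 at 0.43 were not called. The part of sampling time in these differences was not tested.

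**Figure D2:**
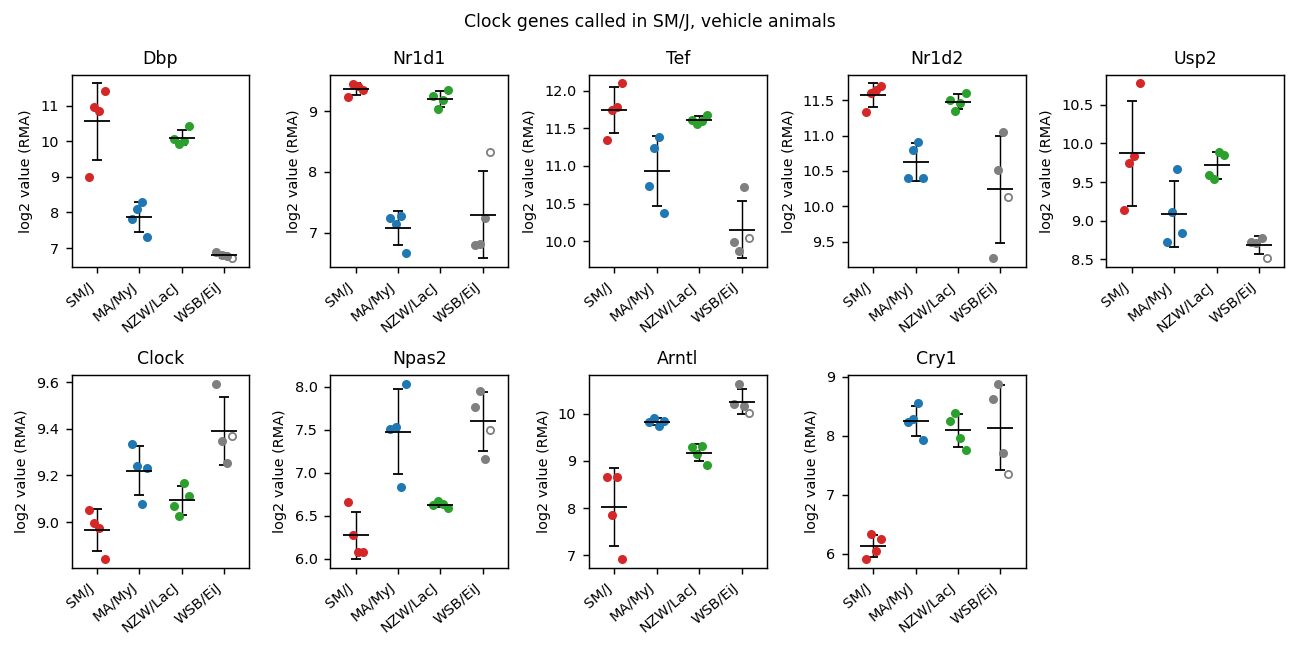
Log2 intensity of 9 clock genes in the vehicle animals of the 4 strains, 1 point per animal, with bars for the mean ± SD (n = 4 animals). Cry1 and Arntl are lower in SM/J than in every other animal, while Nr1d1 and Dbp are high in SM/J and NZW/LacJ and low in MA/MyJ and WSB/EiJ.

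Iron enters the hepatocyte through transferrin receptors, is stored or built into heme, and leaves through ferroportin (Slc40a1). The liver hormone hepcidin (Hamp), which bone morphogenetic protein signals induce, blocks ferroportin. Of 36 tested genes of iron, heme and metal handling, 7 were higher (19.4% against 10% of all genes) and 8 lower (22.2% against 10.6%) in SM/J, and 8 and 8 without WSB/EiJ animal 4, with a median of -0.0197. Tfrc, the transferrin receptor, read 10.99, 10.71, 10.77 and 11.06 in SM/J and 7.39 to 10.05 in the others, all 4 animals above all 12. The difference of 2.04 ± 0.22 is a 4.13-fold ratio (adjusted p = 9.34e-06), and 2 further probe sets gave 0.63 to 0.89.

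Alas1, the rate-limiting first enzyme in liver, read 13.41, 12.95, 13.09 and 13.38 in SM/J against 10.08 to 12.87, a difference of 1.72 ± 0.34 with no overlap. MA/MyJ came nearest with a mean of 12.09, and the comparison with that strain alone did not pass, with an adjusted p of 0.0721. Uros was 0.71 ± 0.13 higher, Ppox 0.36 ± 0.08 and Fech, which inserts iron into the porphyrin, 0.36 ± 0.08. The dimmer second probe set of Uros gave 0.09. Blvrb, a biliverdin reductase of heme breakdown, was higher by 0.24.

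Hamp and the iron exporter were lower. Hamp read 13.84, 13.51, 13.70 and 13.46 in SM/J, below the 13.87 to 14.46 of the others, a difference of -0.60 ± 0.07 (adjusted p = 1.72e-05), and -0.63 in a second probe set. Bmp6, a ligand that drives hepcidin, was at -0.25, and Id1 and Smad7, target genes of the same signal, at -0.78 ± 0.24 and -0.64 ± 0.19. The Id1 call ended without SM/J animal 2, 3 or 4 (-0.73 to -0.63, adjusted p up to 0.104) and that of Smad7 without SM/J animal 2 or 4 (-0.61 to -0.57, up to 0.081). Slc40a1 was at -0.46 ± 0.09, the importer Slc11a2 at -0.43, the metalloreductase Steap2 at -0.40, and Slc30a10, a manganese exporter, at -1.16 ± 0.09 without overlap. Hfe, a regulator of hepcidin, was 0.36 ± 0.07 higher in its brightest probe set but at -1.40 in another that also passed, so its direction is not settled.

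Red-cell precursors also carry transferrin receptor and heme enzymes, so their markers stand beside these values. Of 5 tested erythroid markers, 1, Tfrc itself, was called. Alas2, the erythroid form of Alas1, differed by 0.87 and Klf1 by 0.52, and both were higher in NZW/LacJ than in SM/J. Slc4a1, the red-cell anion exchanger, differed by -0.01 and the alpha globin gene Hba-a2 by 0.25. The part of red-cell precursors in the iron and heme values was not tested.

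**Figure D3:**
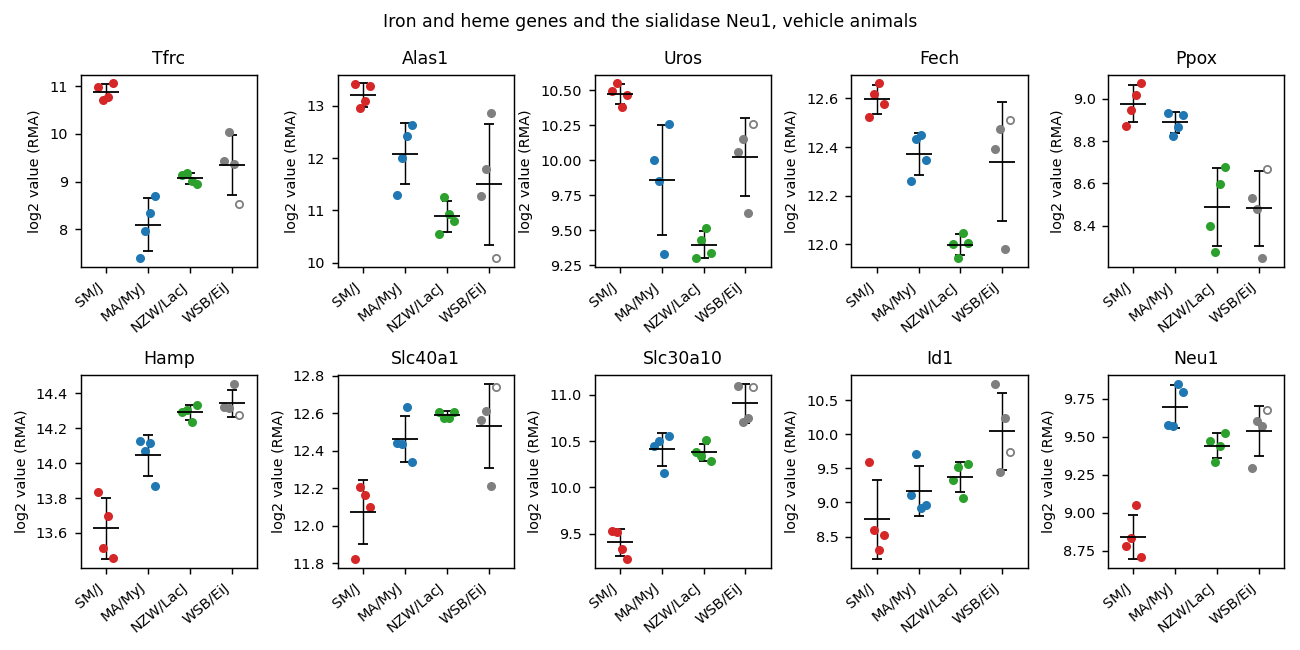
Log2 intensity of 10 genes, 9 of iron, heme and metal handling and the sialidase Neu1, in the vehicle animals of the 4 strains, 1 point per animal, with bars for the mean ± SD (n = 4 animals). The 4 SM/J animals lie above all others for Tfrc, Alas1, Uros and Fech and below all others for Hamp, Slc30a10 and Neu1.

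Fatty acid oxidation in liver is switched on by the nuclear receptor Ppara, which induces carriers and enzymes of mitochondria and peroxisomes. Of 33 tested genes of oxidation and Ppara targets, 12 were higher in SM/J and 1 lower, 36.4% against 10% of all genes, and 13 and 1 without WSB/EiJ animal 4. The median difference was 0.229 against 0.0124 over all genes. Cd36, a fatty acid transporter, read 11.93, 12.45, 12.38 and 12.44 in SM/J against 9.97 to 11.75, a difference of 1.61 ± 0.18 (adjusted p = 9.67e-06) with no overlap, and 2 further probe sets gave 1.65 to 1.99. The acyl-CoA thioesterases Acot3 and Acot4 were 1.55 ± 0.29 and 1.08 ± 0.19 higher. The SM/J animals read 11.83, 12.47, 12.37 and 12.71 for Acot3, above the 8.88 to 11.81 of the others, whereas for Acot4 the MA/MyJ range reached the SM/J values. A second Acot4 probe set gave 0.33 (adjusted p = 0.133), with an SM/J mean of 8.71 below the 9.18 of MA/MyJ, and the Acot4 call ended with it and with the mean of both probe sets (0.70).

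The enzymes of the oxidation pathway itself differed less. Cpt1a, which controls entry of fatty acids into mitochondria, was 0.37 ± 0.07 higher and Cpt2 0.37 ± 0.08. Eci1, an isomerase of unsaturated chains, was 0.63 ± 0.09 higher without overlap. Acadm and Acads, dehydrogenases of the first step, were 0.20 and 0.19 higher, Eci2 0.23 and the transporter Slc27a1 0.34. Ppara itself was 0.55 ± 0.11 higher, with the MA/MyJ mean of 12.01 level with the SM/J mean of 12.02. That call ended without MA/MyJ animal 3 or SM/J animal 4 (0.52 to 0.53), and that of Hadhb, 0.24 ± 0.07, without MA/MyJ animal 3 or SM/J animal 1 (0.20 to 0.22, adjusted p up to 0.0614). Pex11a, a peroxisome division factor and also a Ppara target, was lower at -0.69 ± 0.13.

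Of 36 tested genes of fatty acid and triglyceride synthesis 3 were higher and 7 lower (19.4% against 10.6% of all genes), with a median of -0.0621. Without WSB/EiJ animal 4 the counts were 4 and 8. Acly, which makes cytosolic acetyl-CoA, read 11.04, 11.40, 11.34 and 10.90 in SM/J and 11.48 to 12.27 in the others, a difference of -0.60 ± 0.10 with no overlap. Fasn, fatty acid synthase, was at -0.73 ± 0.12, or -0.68 without MA/MyJ animal 1, where the SM/J mean was no longer below all strains. Khk, the fructose kinase, was at -0.61 ± 0.13, and Me1, Agpat2 and Dgat2 at -0.32, -0.30 and -0.16. Higher were Cideb, a lipid droplet protein, at 0.70 ± 0.09, the desaturase Fads2 at 0.54 ± 0.10 and Mogat1, a monoacylglycerol acyltransferase, at 0.45 ± 0.09. Scd1, the main stearoyl-CoA desaturase, differed by -0.03 and was not called.

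Among lipoprotein genes 5 of 33 were higher and 1 lower (15.2% and 3.03%, against 10% and 10.6% of all genes). Scarb1, the high-density lipoprotein receptor, was 0.64 ± 0.12 higher and Apon, an apolipoprotein, 0.60 ± 0.12, without overlap. Apoc2, the cofactor of lipoprotein lipase, was 0.34 ± 0.11 higher, a call that ended without any 1 of the 4 SM/J animals (0.32 to 0.36, adjusted p up to 0.0908). In cholesterol synthesis and uptake 1 of 23 was higher and 1 lower, and 3 and 1 without WSB/EiJ animal 4. Dhcr7, of the last step of cholesterol synthesis, was at -0.81 ± 0.12, a call that ended without MA/MyJ animal 4 or SM/J animal 2 or 3 (-0.80 to -0.75). Of 33 bile acid genes 5 were higher (15.2%) and 6 lower (18.2%), and 7 and 6 without WSB/EiJ animal 4. Cyp7b1, the oxysterol hydroxylase of the alternative pathway, read 9.18, 8.60, 9.09 and 8.53 in SM/J against 9.15 to 10.95, a difference of -1.28 ± 0.18, while Abcc2, the canalicular exporter, was at -0.77 ± 0.10. Of the 2 further probe sets of Cyp7b1, 1 gave -1.59 and a dimmer one 0.12.

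Glutathione S-transferases conjugate electrophiles for export. Of 21 tested, 7 were higher in SM/J (33.3% against 10% of all genes) and 1 lower, with a median of 0.119, and 8 and 2 without WSB/EiJ animal 4. Gstm2 stood apart from the rest, with 10.0, 10.35, 10.67 and 10.55 in SM/J, strain means of 9.17 in WSB/EiJ, 6.54 in MA/MyJ and 7.78 in NZW/LacJ and a difference of 2.56 ± 0.15 or 5.9-fold (adjusted p = 1.49e-08). Gstt2 was higher without overlap at 0.77 ± 0.09, and Gstm5 was at 0.84 ± 0.14. Gstm6, Gstm3 and Gstm1 were 0.59 ± 0.17, 0.35 ± 0.10 and 0.31 ± 0.09 higher. Their calls ended without SM/J animal 3 or 4, for Gstm3 also without WSB/EiJ animal 3, where differences were 0.42 to 0.53, 0.24 to 0.36 and 0.25 to 0.30. Members of this family are similar in sequence, and signal shared between them was not tested. Gstm7 was at -1.13 ± 0.13 in its brightest probe set and 0.09 in a dimmer one.

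Cytochromes P450 of families 1 and 2 gave 5 of 29 higher and 4 lower, and 6 and 3 without WSB/EiJ animal 4. The shares were 17.2% and 13.8%, against 10% and 10.6% of all genes. Cyp2d9, which male mouse liver expresses more strongly, read 11.86, 11.71, 11.37 and 11.53 in these females against 7.29 to 11.15, a difference of 1.85 ± 0.31. NZW/LacJ came near with a mean of 11.09, and WSB/EiJ animal 4 was the lowest of all at 7.29, the difference without it being 1.67. Cyp2j6, an arachidonic acid epoxygenase, was 0.86 ± 0.09 higher, with an NZW/LacJ mean of 10.35 next to 10.40 in SM/J. Cyp2u1 was at -0.77 ± 0.15, the SM/J animals reading 7.11, 7.25, 6.89 and 6.93 and the others 7.17 to 8.31, with a small overlap. Cyp2r1, a vitamin D 25-hydroxylase, was at -1.53 ± 0.19, but its WSB/EiJ mean of 4.66 was as dim as that of SM/J, and the call ended without WSB/EiJ animal 4 or SM/J animal 4 (-1.44 in each case). In families 3 and 4, 1 of 14 was higher (7.14%) and 2 lower (14.3%), among them Cyp4b1 at -1.02 ± 0.13 without overlap.

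Other enzymes of xenobiotic metabolism differed in both directions as well. Sult5a1, a sulfotransferase, read 7.24, 7.03, 7.29 and 7.31 in SM/J against 7.58 to 10.61, a difference of -2.0 ± 0.23, and -1.86 without WSB/EiJ animal 4, which at 9.36 lay above the 7.58 to 7.82 of its group. In all, 2 of 11 sulfotransferases (18.2%) were lower and 0 higher. The same held for 2 of 12 UDP-glucuronosyltransferases and their cofactor enzyme (16.7%), of which 3 were lower without WSB/EiJ animal 4. Ugt2b37 among them was at -1.94 ± 0.42 against a dim SM/J mean of 5.28. Of 11 carboxylesterases 1 was lower, Aadac at -0.41 ± 0.09, and 0 without WSB/EiJ animal 4 (-0.38). Among flavin monooxygenases and aldehyde-oxidising enzymes 2 of 20 were higher and 4 lower, and 3 and 4 without WSB/EiJ animal 4, led by Aldh1a7 at -1.55 ± 0.24 and Xdh, xanthine dehydrogenase, at -1.29 ± 0.10 without overlap. Of 25 aldo-keto reductases and steroid dehydrogenases 5 were higher and 2 lower, and 6 and 2 without WSB/EiJ animal 4. Akr1c12 at 1.26 ± 0.15 had a MA/MyJ mean of 8.75 close to 8.85 in SM/J, and its call ended without MA/MyJ animal 1 (1.19).

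NRF2 targets divided as 3 higher and 6 lower of 29, and 3 and 5 without WSB/EiJ animal 4. The shares were 10.3% and 20.7%, against 10% and 10.6% of all genes. Gclm, the regulatory subunit of the rate-limiting enzyme of glutathione synthesis, read 11.58, 11.71, 11.74 and 11.67 in SM/J against 12.05 to 12.46, a difference of -0.58 ± 0.07. Its catalytic partner Gclc was at -0.24, whereas Gsr, which regenerates glutathione, was 0.35 ± 0.07 higher. Akr1b8, an aldo-keto reductase, was at -0.93 ± 0.11 without overlap.

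Retinoid metabolism contributed differences in both directions, with 2 of 20 genes higher and 3 lower, and 5 and 3 without WSB/EiJ animal 4. Rdh16f2, a retinol dehydrogenase, read 10.41, 11.06, 10.93 and 10.94 in SM/J against 12.31 to 13.53, a difference of -1.99 ± 0.09 (adjusted p = 8.97e-10). Rdh11 was lower without overlap at -0.66 ± 0.08. Rdh9 was 1.43 ± 0.17 higher, set by a WSB/EiJ mean of 8.38, since MA/MyJ at 11.80 was close to the 11.89 of SM/J. Retsat, a retinol saturase, was 0.35 ± 0.09 higher, a call that ended in a limma fit of 30 arrays with treated animals (adjusted p = 0.056).

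Of 21 genes of serine synthesis and targets of the stress factor Atf4, 4 were higher and 4 lower, and 4 and 6 without WSB/EiJ animal 4. Each share was 19.0%, against 10% higher and 10.6% lower over all genes. Shmt2, the mitochondrial serine hydroxymethyltransferase, read 11.91, 12.13, 12.17 and 12.25 in SM/J against 9.84 to 11.82, a difference of 1.31 ± 0.12. Its cytosolic counterpart Shmt1 was higher by 0.62 and Psph, the last enzyme of serine synthesis, by 0.72 ± 0.11 without overlap. The fourth higher member was Vldlr. Slc3a2, a subunit of amino acid transporters, was at -0.60 ± 0.09 without overlap and Mthfd2 at -0.45. Asns, asparagine synthetase, was at -0.57 ± 0.18, a call that ended without any 1 of 6 animals, namely MA/MyJ 1, NZW/LacJ 2 and 3 and SM/J 1, 2 and 3 (-0.57 to -0.48, adjusted p up to 0.119).

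In the urea cycle and amino acid breakdown 7 of 42 genes were higher and 3 lower, and 9 and 4 without WSB/EiJ animal 4. The shares were 16.7% and 7.14%, against 10% and 10.6% of all genes. Agxt, which detoxifies glyoxylate in the peroxisome, read 13.31, 13.03, 13.21 and 13.01 in SM/J and 12.22 to 12.91 in the others, a difference of 0.63 ± 0.07. Agxt2, its mitochondrial relative, was 0.63 ± 0.07 higher, also without overlap. Gnmt, glycine N-methyltransferase, was lower at -0.51 ± 0.06, with 13.58, 13.69, 13.78 and 13.96 in SM/J against 13.97 to 14.41, and Cbs, which makes cystathionine, at -0.46 ± 0.06. Dhtkd1 was no member of this list. Of 26 genes of gluconeogenesis and glycogen 3 were higher and 2 lower, and 4 and 2 without WSB/EiJ animal 4. Phka2, a subunit of phosphorylase kinase, was 0.62 ± 0.08 higher and Pcx, pyruvate carboxylase, 0.37 ± 0.06, while Ppp1r3b, a glycogen-targeting phosphatase subunit, was at -1.13 ± 0.25. A second, dimmer Phka2 probe set gave 0.08 (adjusted p = 0.576), and the Phka2 call ended with it. Pck1, the rate-limiting enzyme of gluconeogenesis, was 0.57 ± 0.19 higher in its brightest probe set, and 2 dimmer ones gave 0.37 and -1.11. The Pck1 call also ended without NZW/LacJ animal 1 or 3 or any 1 SM/J animal (0.51 to 0.62).

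Acute phase proteins are secreted by hepatocytes in inflammation. Of 32 tested, 1 was higher and 7 lower, 21.9% lower against 10.6% of all genes, with a median of -0.108, and 1 and 8 without WSB/EiJ animal 4. Orm3, an orosomucoid, read 6.06, 6.45, 6.59 and 6.84 in SM/J against 7.32 to 10.02, a difference of -1.92 ± 0.12 (adjusted p = 2.5e-08). Orm1, the abundant form, was at -1.22 ± 0.19, with SM/J animal 1 the lowest at 10.86 and animals 2 to 4 at 11.89 to 12.12. Apcs, serum amyloid P, was at -0.89 ± 0.18 and Fga, fibrinogen alpha, at -0.47 ± 0.05 without overlap. Saa4, a constitutive serum amyloid A, was 0.62 ± 0.12 higher, a call that ended without MA/MyJ animal 4 (0.59). Of 39 complement and coagulation genes 4 were higher and 4 lower, the higher ones including the 3 C1q chains.

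Interferon-response genes were the list whose count moved most with 1 animal. Of 37 tested, 4 were higher (10.8%, near the 10% of all genes) and 0 lower, with a median of 0.291. Without WSB/EiJ animal 4 there were 16 higher and 0 lower, where 12.2% of all genes were higher and 13.2% lower. That animal read 9.80 for Ifit1, an interferon-induced antiviral protein, against 6.33 to 6.91 in the other 3 of its group, and 9.41 for Ifit3 against 6.97 to 7.23. SM/J animals read 7.75, 8.08, 8.17 and 7.82 for Ifit1, and the difference was 0.72 with it and 0.99 without it. Called with all 16 arrays were the guanylate-binding proteins Gbp7 at 1.27 ± 0.27 and Gbp3 at 1.04 ± 0.12, the exonuclease Isg20 at 0.85 ± 0.12 and Ifi27l2b at 0.51. Gbp3 and Isg20 did not overlap between SM/J and the others. Of 20 genes of class I antigen presentation 2 were higher and 2 lower, and 4 and 2 without that animal. H2-K1, a polymorphic class I heavy chain, was 1.27 ± 0.13 higher, with 2 further probe sets at 0.15 to 1.82. The one at 0.15 had an SM/J mean of 10.52 below the 10.54 of NZW/LacJ, so that the H2-K1 call ended with it. Of 8 class II genes 1 was higher and 0 lower.

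Markers of other liver cells were read from the same arrays, where more cells of a type and more RNA per cell cannot be told apart. Of 17 Kupffer cell and macrophage markers 5 were higher and 1 lower, and 5 and 2 without WSB/EiJ animal 4. The shares were 29.4% and 5.88%, against 10% and 10.6% of all genes, and the median was 0.555 against 0.0124. The lower marker was Lyz2, a lysozyme gene, at -0.35, a call that ended without SM/J animal 1, 2 or 3 (-0.34 to -0.31). Marco, a scavenger receptor, was 1.06 ± 0.23 higher and Fcna, ficolin A, 0.80 ± 0.08 without overlap. The C1q chains C1qa, C1qb and C1qc were 0.79 ± 0.13, 0.75 ± 0.15 and 0.83 ± 0.11 higher, with NZW/LacJ means only slightly below those of SM/J. Their calls ended for C1qa without NZW/LacJ animal 3 or 4 or SM/J animal 3 (0.71 to 0.77) and for C1qb without NZW/LacJ animal 4 or SM/J animal 3 (0.64 to 0.72). The Kupffer-defining Clec4f at 0.45 ± 0.14, Timd4 at 0.80 ± 0.18 and Vsig4 at 0.51 ± 0.13 passed the contrast but were not called, since the NZW/LacJ mean was higher still. Adgre1, the general macrophage marker F4/80, differed by 0.21 ± 0.09. Among treated animals the Kupffer list had a median of -0.119.

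Of 14 endothelial markers 5 were lower (35.7% against 10.6% of all genes) and 1 higher, with a median of -0.251. Stab2, a scavenger receptor of sinusoidal endothelium, was at -0.50 ± 0.14, or -0.31 without SM/J animal 4 (adjusted p = 0.076), and Ptprb at -0.34 ± 0.08. Tek, an angiopoietin receptor, was at -0.37 ± 0.11, a call that ended without SM/J animal 1, 2 or 4 (-0.37 to -0.28). Lyve1, a hyaluronan receptor, was higher in SM/J, with 9.95, 9.30, 9.81 and 9.75 against 4.97 to 8.78, a difference of 1.73 ± 0.39, and 1.49 without WSB/EiJ animal 4, whose 4.97 was the lowest value. Of 13 stellate cell and fibroblast markers 2 were higher and 0 lower, and 3 and 0 without WSB/EiJ animal 4, with Lum, lumican, at 0.80 ± 0.17. Of 3 cholangiocyte markers 1 was higher, and none of 5 T and NK cell, 7 B and plasma cell or 4 neutrophil and monocyte markers was called, except 1 T and NK cell marker that was higher without WSB/EiJ animal 4. Of 4 markers of neighbouring tissues 1 was higher, Fabp2, a fatty acid binding protein of gut, at 1.28 ± 0.26, while the pancreatic Prss2 differed by 0.0. The part of cell composition in the differences above was not tested.

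Genes whose level differs by sex were examined because all animals were females. Of 20 female-biased genes 5 were higher (25% against 10% of all genes) and 1 lower (5% against 10.6%), with a median of 0.178. Of 18 male-biased genes 1 was higher (5.56%) and 3 lower (16.7%), with a median of -0.131. Over all genes the median was 0.0124. Without WSB/EiJ animal 4 the female-biased counts were 6 and 1 and the male-biased counts 1 and 5. Higher female-biased genes were Acot3, Cyp2b13 at 1.34 ± 0.31 and Cyp2b9 at 0.57 ± 0.16. The calls of Cyp2b13 and Cyp2b9 ended without single animals, 5 and 4 in number, among them SM/J animals 2, 3 and 4 (1.20 to 1.34 and 0.49 to 0.55); the others were NZW/LacJ animals 2 and 4 for Cyp2b13 and WSB/EiJ animal 3 for Cyp2b9. Lower male-biased genes were Elovl3, Cyp7b1 and Cyp2u1, whereas Cyp2d9 went against its group. The female-biased Fmo2 also went against its group, being lower, with -0.85 to -0.37 in further probe sets. The Fmo2 call ended with the second brightest, at -0.37, where the SM/J mean of 8.63 was no longer below the 8.62 of MA/MyJ. In the growth hormone axis 2 of 25 were higher and 2 lower (8% each), and 4 and 2 without WSB/EiJ animal 4. Socs3, a feedback inhibitor of cytokine signals, read 9.18, 8.70, 9.03 and 8.28 in SM/J against 6.40 to 8.27, a difference of 1.06 ± 0.24, and Igf1, the hormone's main liver product, was at -0.24 ± 0.06.

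Proteasome subunits had 5 of 33 higher and 3 lower (15.2% and 9.09%, against 10% and 10.6% of all genes). Psmb6, a catalytic core subunit, was at -0.50 ± 0.05 without overlap and Psmd14 at 0.42 ± 0.10. Respiratory chain genes had 2 of 43 higher and 0 lower, and 5 and 0 without WSB/EiJ animal 4, led by Ndufa7 of complex I at 0.44 ± 0.07. Unfolded protein response genes had 1 of 29 higher and 1 lower, and 0 and 3 without it, with Dnajc3, a chaperone of the endoplasmic reticulum, at -0.50 ± 0.09. Serpins had 2 of 19 higher (10.5%) and 4 lower (21.1%), and 3 and 3 without it. Serpina12 at -1.82 ± 0.47 lost its call without WSB/EiJ animal 4, which read 10.4 against 6.70 to 6.98 in its group (-1.52 without it). Cell cycle genes had 0 of 20 higher and 2 lower, Rrm2 and Ccnd1, cyclin D1, the latter at -1.38 ± 0.36 and -1.20 without SM/J animal 4 (adjusted p = 0.0535). Further probe sets of Ccnd1 gave -0.87 (adjusted p = 0.0509) and -0.39 (adjusted p = 0.41), and the call ended with the second brightest and with the mean of its probe sets. Of 2 tested major urinary protein genes 1, Mup10, was lower at -2.68 ± 0.23, with a WSB/EiJ mean of 5.30 beside 4.75 in SM/J.

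**Figure D4:**
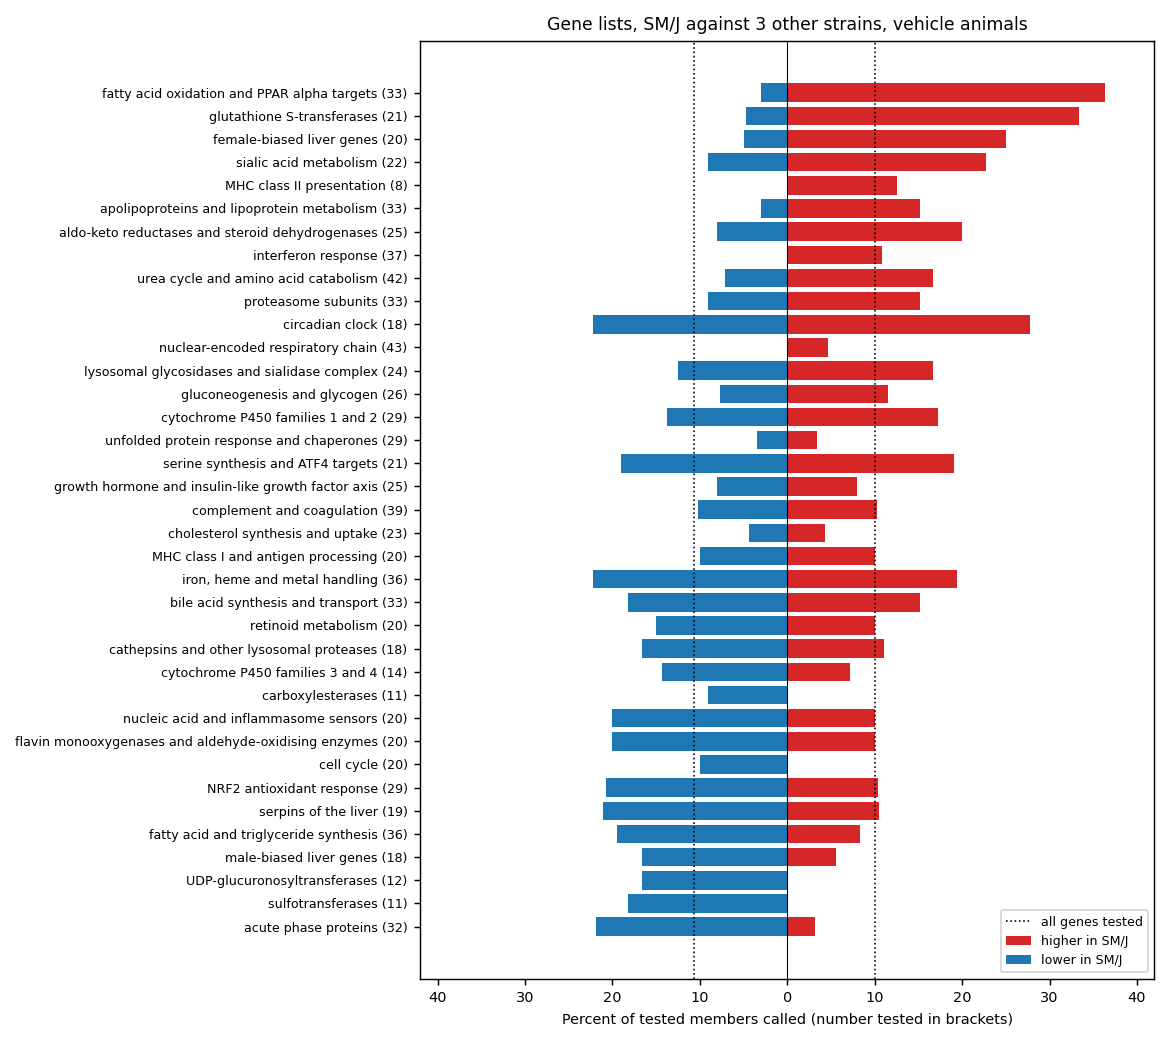
Percent of the tested members of each gene list called higher (right) or lower (left) in SM/J, lists sorted by percent higher minus percent lower. Cell-type marker lists and lists with few tested members are not drawn. The dotted lines mark the share of all 12462 genes, 10% higher and 10.6% lower. Fatty acid oxidation and glutathione S-transferases exceed the dotted line upward, and acute phase proteins downward.

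Set against single strains, SM/J differed most often from WSB/EiJ, with 2219 genes higher (17.8%) and 2432 lower (19.5%). Against NZW/LacJ, 1859 genes (14.9%) were higher and 1368 (11%) lower, and against MA/MyJ 1083 (8.69%) and 1495 (12%). The 257 genes higher (2.06%) and 304 lower (2.44%) against all 3 strains, each read from its brightest probe set, included Tfrc, Cd36, Gstm2, Asgr2, Ctse and Shmt2 upward and Neu1, Hamp, Cry1, Xdh, Gclm and Cbs downward. Without WSB/EiJ animal 4 these counts were 325 and 394.

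Animals given PF-04287881 share no array with the vehicle comparison and gave the same strain contrast a second reading, on 14 arrays. There 830 genes (6.66%) were higher and 1141 (9.16%) lower in SM/J, or 415 and 615 with the array labelled WSB/EiJ treated animal 3. Of the genes called in vehicle animals, 405 higher ones were also called higher in treated animals, 32.5% of the vehicle and 48.8% of the treated list, as were 536 lower ones, 40.4% and 47.0%. Opposite calls were made for 2 and 3 genes. The difference kept its sign in 90.9% of the higher and 91.5% of the lower vehicle calls. Rassf4 was at 3.03 among treated animals, Tfrc at 1.18, Cd36 at 1.01, Dhtkd1 at -3.31 and Hamp at -0.29. Mcf2l was at 0.83 among treated animals but was not called, its NZW/LacJ mean of 8.50 lying above the 7.56 of SM/J. The Ppara-target list had a median of 0.331 there and the clock list one of -0.231, against 0.343 in vehicle animals.

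Whether a strain difference itself differed with treatment was tested as an interaction on 30 arrays. It passed in 146 genes, in 82 of them (0.658%) upward and in 64 (0.514%) downward for SM/J minus the others. Nr1d1 gave -2.37 (adjusted p = 0.0059), its mean being 9.37 in vehicle and 7.94 in treated SM/J but 7.29 and 9.78 in WSB/EiJ. Cry1 gave 2.22 (adjusted p = 0.000564). Its SM/J mean was 6.14 in vehicle and 7.66 in treated animals, while the means of the other strains were 8.09 to 8.25 in vehicle and 7.09 to 7.65 in treated animals. Socs3 gave -1.68, with 7.92 in vehicle and 10.58 in treated WSB/EiJ, and Sucnr1 1.74, with 6.11 and 7.04 in SM/J. Ptger3 gave -1.60, since it read 4.58 in treated SM/J and reached 8.22 in MA/MyJ and 9.58 in WSB/EiJ. Including the array labelled WSB/EiJ treated animal 3 left 7 genes, and leaving out WSB/EiJ vehicle animal 4 gave 217.

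**Figure D5:**
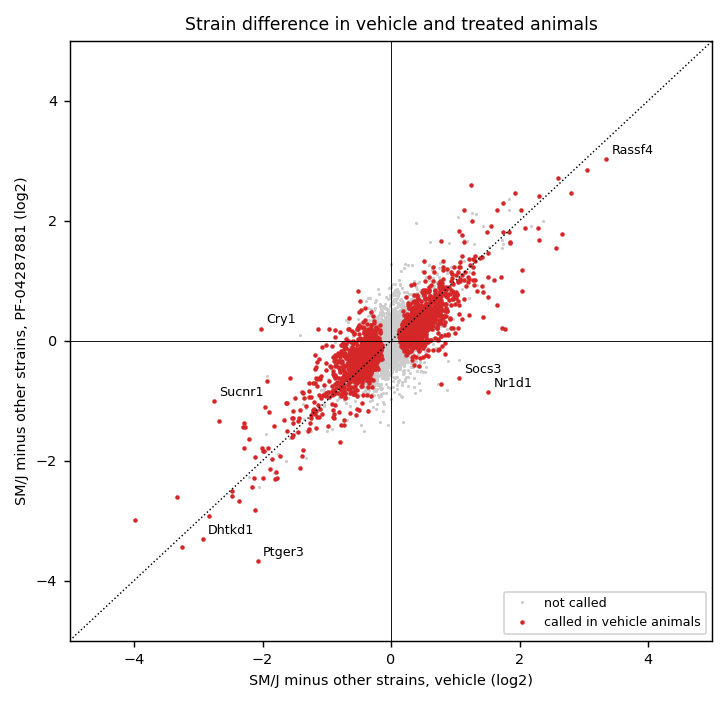
SM/J minus the mean of the other 3 strains in vehicle animals (horizontal) and in treated animals (vertical), both in log2 units, 1 point per tested gene, called genes of the vehicle comparison in red. Most called genes share their sign on both axes, whereas Cry1, Nr1d1 and Socs3 lie away from the diagonal.

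Further probe sets bear on whether a difference may belong to 1 probe set. Among called genes with another probe set past the filter, 302 of 524 higher genes (57.6%) and 394 of 674 lower genes (58.5%) had at least 1 that passed the contrast in the same direction, whether or not its SM/J mean lay beyond all 3 strains. An opposite direction passed in 10 and 9 genes, Hfe and Pck1 among the named ones. A same direction that did not pass was found in 180 and 224 genes, and an opposite one that did not pass in 32 and 47. With the second brightest probe set, among the 5071 genes where it and the brightest passed the filter, 463 were higher and 571 lower, and 248 and 311 were called by both. Of the 30 largest differences, 10 belonged to genes with a further probe set past the filter, and in each of these every further probe set passed the contrast in the same direction, though that of Atp11a did not meet the call. Among other named genes, a further probe set passed the contrast with SM/J between the other strains for Gsr (0.24), Pex11a (-0.47), Ppara (0.51), Retsat (0.50), Scarb1 (0.62), Usp2 (1.01), Dnajc3 (-0.35) and Shmt2 (0.26). At least 1 further probe set did not pass for Acly (-0.13), Cpt1a (0.31 to 0.33), Fech (0.15), Gstm1 (0.11 to 0.17), Hnf4a (-0.27 to -0.26), Igf1 (-0.30 to -0.29) and Ndufa7 (-0.05). Further probe sets that passed gave another size for Ptprb (-1.68), Ctsc (-1.44), Gne (0.77), Shmt2 (0.58), Gclm (-0.34), Rrm2 (-1.45 to -1.40), Pde6h (-0.85), Marco (0.70), Clock (-0.49 to -0.36), Pcx (0.39 to 0.76) and Gnptab (0.29 to 0.43). Variants under the probes were not tested, because no strain sequence was used here.

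Called genes lay next to each other in several places, in the gene order of the GRCm38.p6 annotation among tested genes. On chromosome 10, Rdh16f2, Rdh7, Sdr9c7 and Hsd17b6 follow one another, all dehydrogenases of retinoids or steroids; Rdh16f2, Sdr9c7 and Hsd17b6 at -0.87 ± 0.19 were lower and Rdh7 was not called. Also on chromosome 10, Lyz1, a lysozyme gene at -2.12 ± 0.27, lies near Cpm, and Gnptab at 0.50 ± 0.11 and Chpt1 at 0.85 ± 0.07 follow Dram1. Gstm6, Gstm3, Gstm2 and Gstm1 are neighbours on chromosome 3. Atp10d is next to Nfxl1, at -1.15 ± 0.11, on chromosome 5, and Atp11a and Mcf2l are adjacent on chromosome 8. Erp27 and Pde6h, both lower, lie 2 genes apart on chromosome 6, but Arhgdib between them was higher at 0.71 ± 0.10. Other adjacent genes were also called in the opposite direction. These were Nudcd3 (-0.53) by Camk2b, Eif3m (-0.24) by Them7 and Cyp2d10 (-0.22) by Cyp2d9. Ppm1l (0.34) by B3galnt1 and Pmpcb (0.37) by Armc10 were further cases. G0s2 is next to Lamb3 on chromosome 1, which was 1.65 ± 0.27 higher, or 1.49 and no longer above all strains without MA/MyJ animal 3. Of the 368 lower genes without overlap, 32.9% had an adjacent gene called lower, against 19.9% of all 12442 ordered genes. For the higher genes without overlap, 25.3% had an adjacent gene called higher, against 19.0%. An adjacent gene called in the opposite direction stood beside 18.75% of those lower genes, against 19.0% of all ordered genes. For those higher genes it was 16.6%, against 19.9%.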

How the data were processed

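RNA of the left liver lobe was hybridised to 1-colour Affymetrix arrays. The deposited log2 values per probe set were made by the authors with RMA in Affymetrix Power Tools, per the submitters' processing notes (versions not given there), which corrects background, normalises by quantiles and summarises probes, and so compresses low signals. Of 44721 probe sets, 34728 carried 1 gene symbol, 872 several and 9121, the 60 control probe sets among them, none; 34525 were found in a GRCm38.p6 table used to update names. A gene with several probe sets, as 7357 tested genes were, was read from the one brightest on average across the 31 arrays. Genes above 6.49, the median of the vehicle values, in at least 4 of the 16 vehicle arrays were kept, 12462 of 18147, which left 5685 dim genes aside. Vehicle array medians lay between 6.43 and 6.54, and replicates correlated at 0.991 to 0.996 in SM/J and 0.980 to 0.992 in WSB/EiJ, the lowest. The number of arrays limits the precision.

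A mean per strain was fitted to the 16 vehicle arrays by lmFit and eBayes of limma 3.58.1 under R 4.3.3, files being read by the package data.table in its version 1.17.8, with 12 residual and 3.52 prior degrees of freedom, two-sided and adjusted by Benjamini-Hochberg over all 12462 genes. The contrast was SM/J minus the equal-weight mean of MA/MyJ, NZW/LacJ and WSB/EiJ; the treated contrast used 14 arrays and the interaction 30. On simulated data with the real means and spreads of 12462 genes, this contrast recovered 76 of 100 genes changed by 0.5 log2 units. The contrast recovered 96 of 100 changed by 1, with 5.49% false calls, and called 0 genes where nothing was changed. The other strains were simulated with the same mean for each gene, whereas the real strains differ from each other. Recovery and false calls therefore hold for that simpler case and were not tested for strains that differ.

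The text names the 15 largest called differences in each direction without overlap and without predicted names, up to 3 called members a list in each direction, and Neu1. Other members with values, among them Nr1d2, Usp2, Per1, Hfe, Hamp, Ppara, Ifit1 and the neighbours, were picked once their values were known. The comparison, the members and all lists were chosen with earlier results of these data known. Animal numbers are shared between strains but pair nothing: correlations of same-numbered deviations ran from -0.27 to 0.16. Alternatives tried were the filter, the normalization, the choice of probe set, the variance model, array weights, the arrays in the fit, the replicate block and leaving out each animal.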

Additional observations from a re-analysis of the deposited data

Results flagged for a closer look

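For each named gene and strain, the vehicle animal farthest from the other 3 of its group was checked for a gap beyond the 95% limit of Dixon's test. This held in 48 of 896 groups of 4, and chance flags about 1 in 20 groups. SM/J animal 1 stood apart most often, in 11 genes, in log2 units. It was below the other 3 for Vldlr (8.05 against 9.06 to 9.18), Cyp2b13 (12.02 against 13.25 to 13.43), Aadac (12.32 against 12.56 to 12.58), Cyp2b9 (12.64 against 13.02 to 13.08), Cd36 (11.93 against 12.38 to 12.45), Scarb1 (12.39 against 12.81 to 12.88), Gstt1 (11.86 against 12.19 to 12.25) and Pklr (9.18 against 9.39 to 9.42). It was above them for Nlrp12 (7.51 against 5.42 to 5.73), Cd14 (8.28 against 7.71 to 7.78) and Psmc2 (12.37 against 12.20 to 12.22). SM/J animal 2 stood apart for Cfi (13.69 against 13.73 to 13.74) and Ddit3 (7.87 against 8.09 to 8.12). SM/J animal 3 stood apart for Ifi202b (7.99 against 7.44 to 7.48) and Fcna (10.82 against 10.40 to 10.45).

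In the other strains the animals that stood apart enter the reference. WSB/EiJ animal 4 did so, in 9 genes, for Cyp2d9 (7.29 against 9.28 to 9.62), Sult5a1 (9.36 against 7.58 to 7.82), Serpina12 (10.38 against 6.70 to 6.98), Tlr5 (6.70 against 6.31 to 6.37), Phka2 (9.11 against 8.74 to 8.79), Lyve1 (4.97 against 7.62 to 8.10), Gzma (7.39 against 7.04 to 7.09), Ifit1 (9.80 against 6.33 to 6.91) and Ifit3 (9.41 against 6.97 to 7.23). WSB/EiJ animal 3 did so for Dram1 (6.87 against 5.86 to 5.91), Dhcr7 (9.63 against 9.03 to 9.13), Asns (8.21 against 7.0 to 7.14), Stab2 (11.05 against 10.51 to 10.54) and Reln (10.87 against 11.29 to 11.35). WSB/EiJ animal 1 did so for Serpinh1 (7.29 against 7.01 to 7.06). WSB/EiJ animal 2 did so for Adgre1 (7.24 against 7.80 to 7.82). MA/MyJ animal 1 did so for Naglu (8.27 against 8.67 to 8.75) and Per1 (7.28 against 8.94 to 9.12). MA/MyJ animal 2 did so for Dram1 (5.97 against 5.09 to 5.16). MA/MyJ animal 3 did so for Scarb1 (11.63 against 10.89 to 10.996), Tlr12 (7.28 against 7.97 to 8.10), Epcam (6.46 against 6.65 to 6.66) and Vsig4 (8.86 against 8.56 to 8.60). MA/MyJ animal 4 did so for Rrm2 (7.26 against 7.80 to 7.89). NZW/LacJ animal 1 did so for Neu2 (6.56 against 6.79 to 6.83), Saa4 (11.85 against 11.50 to 11.55) and Hadhb (13.002 against 13.13 to 13.15). NZW/LacJ animal 2 did so for Dram1 (6.23 against 5.63 to 5.71), Gbp7 (6.31 against 6.12 to 6.14), Gldc (11.92 against 12.04 to 12.05) and Gstm6 (8.42 against 8.14 to 8.18). NZW/LacJ animal 3 did so for Ctsc (12.30 against 12.06 to 12.08). NZW/LacJ animal 4 did so for Gsr (10.99 against 10.85 to 10.86).

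The SM/J difference itself differed between treated and vehicle animals, by the interaction test in limma on 30 arrays, for 11 named genes. Treated minus vehicle was downward for Gstm2 (-1.02, adjusted p = 0.0296), Mcf2l (-1.20, 0.000948), Ptger3 (-1.60, 0.0219), Socs3 (-1.68, 0.0133), Tlr12 (-0.71, 0.0454), Agxt (-0.62, 0.0216), Nr1d1 (-2.37, 0.0059) and Rdh9 (-1.03, 0.0252). It was upward for Sucnr1 (1.74, 0.0424), Erp27 (0.84, 0.0133) and Cry1 (2.22, 0.000564). Gstm2 had a MA/MyJ mean of 6.54 in vehicle and 8.01 in treated animals, with 10.39 and 10.10 in SM/J. The interaction shares the vehicle arrays with the main comparison.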

How the results depend on the processing

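Over the named genes, 5708 of the recomputed differences kept their direction and whether they were called, 329 lost the call, either by the adjusted p or because SM/J no longer lay beyond all 3 strains, 20 gained it, 68 without a test moved by more than the spread and 6 reversed. The reversed ones all came from the choice of probe set. With the mean of a gene's probe sets Pck1 gave -0.0602 and Hfe -0.52, and with the second brightest probe set Hfe gave -1.40, Gstm7 0.0854, Lamp2 0.157 and Arntl 0.0847. With that second probe set 465 genes were higher and 573 lower, fewer genes having one. Of these, 463 and 571 lie among the 5071 genes whose brightest probe set also passed the filter. Including the array labelled WSB/EiJ treated animal 3 gave 415 higher and 615 lower genes in the treated contrast and 7 for the interaction, against 830, 1141 and 146. Leaving out 1 animal at a time gave 915 to 1520 higher and 900 to 1642 lower genes, lowest without SM/J animal 4 and highest without WSB/EiJ animal 4. Without the latter the interaction passed in 217 genes. The animal number as a replicate block gave 1188 higher and 1223 lower genes, and 1 of 16 arrays correlated best with its own number, so the numbers do not pair the animals. Array weights gave 1846 and 1806, centring each array on its median 1049 and 1411, no filter 1305 and 1281, and all 31 arrays in 1 fit 1087 and 1199. That fit of 31 arrays in limma ended the calls of Fasn, Tek, Rdh11 and Lyz2, among others (adjusted p of 0.0657 to 0.314). Named calls that ended without 1 animal belonged to 57 genes. No detection calls were used here, so signal near background is limited by the filter alone.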
